A study of Mus musculus with 152 samples.

Results

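A set of 10 transcripts of the liver epithelium, 5 keratins and 5 markers of ductular progenitor cells, was followed in mouse liver from 1 to 48 weeks of a diet that induces fatty liver disease. The 10 members are Krt7, Krt8, Krt18, Krt19, Krt23, Epcam, Sox9, Sox4, Cd24a and Prom1. They were listed by name for what they mark, but with earlier results of these data known. All 10 were found among the 54532 genes of the tables. The mice were C57BL/6J and went from 8 weeks of age onto LIDPAD, which induces NAFLD (fatty liver disease without alcohol), or onto a purified Control diet. Whole liver RNA was sequenced after 1, 4, 8, 12, 16, 32 and 48 weeks on either diet, which gives 14 groups. No group carries a transgene, and the labels give neither sex nor the composition of the diets.

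The tables name 152 samples, but every block of 4 columns agreed within the sampling noise expected of parts of the same library, so each block was counted as 1 library. That left 20 LIDPAD and 18 Control libraries: 2 for each diet at weeks 1, 4, 8 and 12, 3 for each at week 16, 5 LIDPAD and 4 Control at week 32, and 4 LIDPAD and 3 Control at week 48. Depth ran from 10.9 to 53.8 M reads (M, 1000000) per library, with a median of 29.0 M. Nothing in the labels says that libraries came from separate animals, so the p-values rest on a spread among libraries that could be technical. Values are given as FPM, the authors' counts divided by a size factor and expressed per 1000000, and a change is the difference of the mean log2(FPM + 0.5) of the diets, LIDPAD minus Control. A gene was tested in a week where at least as many libraries as in its smaller group had 1 FPM or more, and was called where limma's two-sided p, adjusted over all genes tested by the Benjamini-Hochberg method, was under 0.05. Scaling every library to the same total in place of the authors' size factors would raise the median change over all genes. The rise is 0.01 at week 1, 0.06 at week 4, 0.11 at week 8, 0.19 at weeks 12 and 16, 0.28 at week 32 and 0.26 at week 48. The same scaling sets the change of Sox9 at week 12 to 0.00 and turns that of Cd24a at week 8 to 0.04, and turns no other.

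Keratins are the intermediate filament proteins of epithelia and assemble as pairs of a type I and a type II chain. Hepatocytes contain a single such pair, keratin 8 (type II, Krt8) with keratin 18 (type I, Krt18), which protects the cell against mechanical and toxic stress and is a main component of the Mallory-Denk bodies seen in steatohepatitis. Bile duct cells add keratin 7 (type II) and keratin 19 (type I). In a ductular reaction, a common response of diseased liver, strands of duct-like cells expand from the portal tracts, and they carry the surface proteins EpCAM, CD24 and prominin-1 and the transcription factors SOX9 and SOX4. In whole tissue, more cells of a type and more RNA per cell cannot be told apart.

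Upstream sequences of the members whose profiles the results turn on are shown here as the strand each gene is read from. They come from the 250 bases before RefSeq start sites (GRCm38.p6), cut at the first annotated base of the gene. For Krt8 the cut took away chr15:102004343-102004482, the bases next to that start site. Of the 10 members 7 had an entry in the table of promoters, and 5 are printed: the hepatocyte pair Krt8 and Krt18, Krt23 as the member with the earliest call, and Epcam and Sox4 as examples of ductular members with their largest change at week 32. The windows are chr15:102004483-102004592 (Krt8, minus strand, 110 bases), chr15:102027966-102028179 (Krt18, plus strand, 214 bases), chr11:99493138-99493370 (Krt23, minus strand, 233 bases), chr17:87635729-87635978 (Epcam, plus strand, 250 bases) and chr13:28953714-28953949 (Sox4, minus strand, 236 bases). Capitals mark matches, on either strand, to 5 motifs: the TATA box TATAAA, the motif TGANTCA of AP-1, the motif GGAATG of TEAD factors, the box CCAAT, and the GC box GGGCGG.
Krt8: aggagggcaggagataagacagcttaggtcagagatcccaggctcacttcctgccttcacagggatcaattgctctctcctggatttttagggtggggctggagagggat
Krt18: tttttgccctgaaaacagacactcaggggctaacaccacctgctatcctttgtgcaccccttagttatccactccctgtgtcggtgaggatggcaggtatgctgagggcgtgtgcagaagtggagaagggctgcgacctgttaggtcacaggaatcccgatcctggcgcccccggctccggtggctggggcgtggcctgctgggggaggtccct
Krt23: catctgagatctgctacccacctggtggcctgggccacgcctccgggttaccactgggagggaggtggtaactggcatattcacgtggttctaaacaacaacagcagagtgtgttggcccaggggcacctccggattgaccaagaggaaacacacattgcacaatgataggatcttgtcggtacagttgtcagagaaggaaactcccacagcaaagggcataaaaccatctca
Epcam: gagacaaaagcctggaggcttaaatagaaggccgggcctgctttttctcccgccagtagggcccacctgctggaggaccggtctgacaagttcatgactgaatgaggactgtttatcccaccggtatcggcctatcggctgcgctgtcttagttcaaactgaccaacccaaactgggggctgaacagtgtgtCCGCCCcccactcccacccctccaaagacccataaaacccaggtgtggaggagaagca
Sox4: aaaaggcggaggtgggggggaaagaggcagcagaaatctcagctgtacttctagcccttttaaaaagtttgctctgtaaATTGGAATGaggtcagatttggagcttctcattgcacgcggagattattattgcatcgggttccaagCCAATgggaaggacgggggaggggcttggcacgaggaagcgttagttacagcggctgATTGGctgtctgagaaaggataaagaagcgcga
None of the 5 motifs was found in the windows of Krt8, Krt18 and Krt23. The Epcam window held 1 GGGCGG, read on the minus strand as CCGCCC. The Sox4 window held 3 CCAAT and 1 GGAATG, and the GGAATG overlaps an inverted CCAAT. In the uncut 250 bases Krt8, Krt18 and Krt23 also held none of the motifs, and Sox4 held 4 CCAAT. Over the 250 bases before 32851 mouse start sites, TATAAA was present in 12.4%, TGANTCA in 6.75%, GGAATG in 12.6%, CCAAT in 33.8% and GGGCGG in 32.7%. These matches describe letters and not bound sites.

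By their calls in single weeks the members fell into 3 patterns. Krt23 was already called higher in LIDPAD livers at week 1. Krt8 and Krt18 were called higher from week 8 to week 32 and had their largest change at week 16. The ductular genes (Krt7, Krt19, Epcam, Cd24a, Prom1, Sox4) were not called before week 12, where most were too low to be tested, and had their largest change at week 32. Sox9 was not called in the limma fits of single weeks, but was at week 32 in other fits of the same libraries. The F test that the changes were equal over the weeks, given below, was not called for Krt8, Krt18, Krt23, Krt19, Prom1 or Sox9. For Krt8, Krt18 and Krt23 the contrast of late against early weeks was not called either, so their timing only describes. The number of members called higher in LIDPAD was 1 of 5 tested at week 1, 0 of 5 at week 4, 3 of 6 at week 8, 6 of 8 at week 12, 8 of 9 at week 16, 9 of 10 at week 32 and 1 of 10 at week 48. Of all genes tested, limma called 0.726%, 0.121%, 3.85%, 8.99%, 16.3%, 18% and 6.54% higher in those weeks, and 1.99%, 0.287%, 5.6%, 15.2%, 28.2%, 26.9% and 9.87% in either direction. No member was called lower in any week with all libraries, although limma called 1.27%, 0.166%, 1.75%, 6.25%, 12%, 8.82% and 3.34% of all genes tested lower. edgeR and DESeq2 also called no member lower, and at an unadjusted p under 0.05 limma found 1, Sox9, at each of weeks 1, 4 and 8. At week 4, where no member was called in either direction, that was the only one, and edgeR and DESeq2 had 0 members under 0.05. The low ductular genes reached the 1 FPM needed for a test largely through their LIDPAD libraries, so the counts of tested members describe and do not support.

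**Figure D1:**
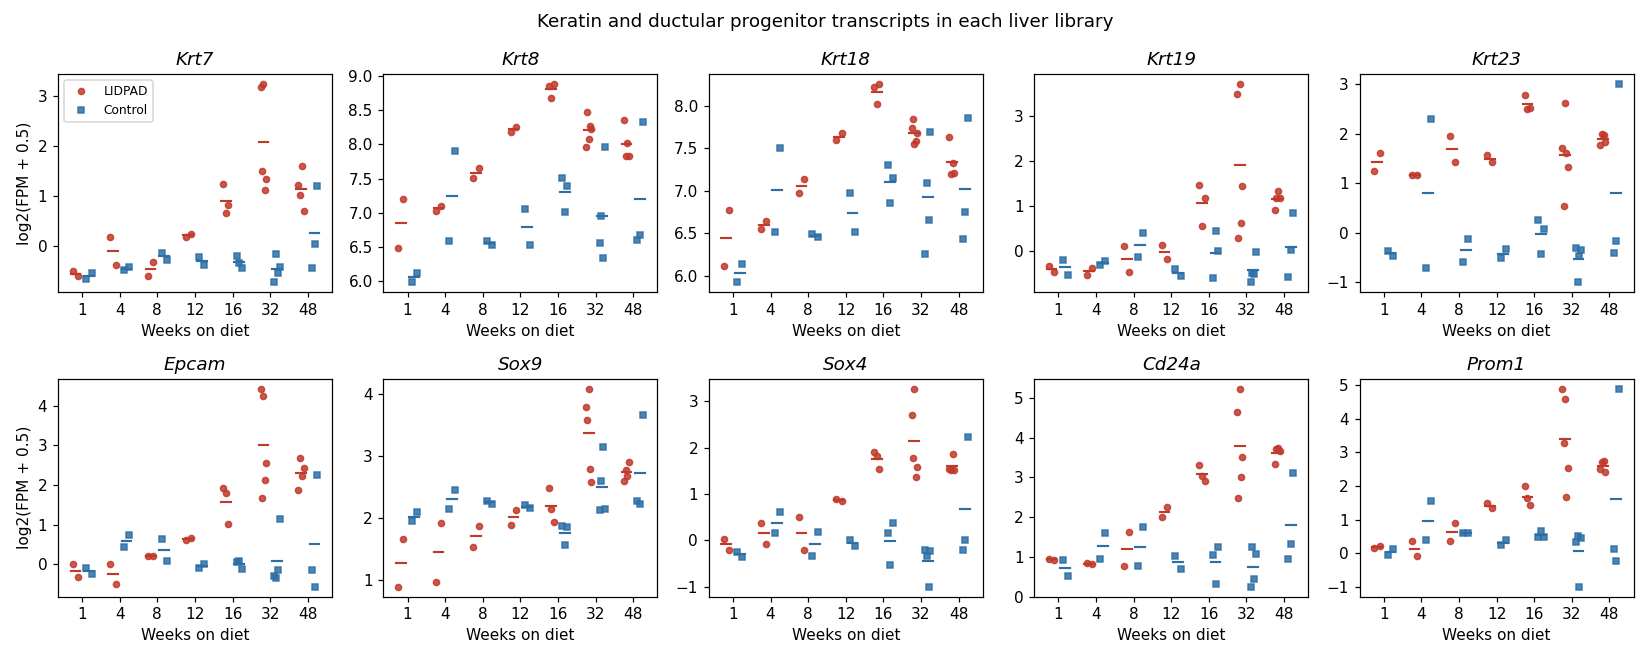
Level of each member in every library as log2(FPM + 0.5) against weeks on diet, with LIDPAD (red circles) left of Control (blue squares) and short lines at the group means. Krt8 and Krt18 separate by diet from week 8 to week 16, Krt8 also at week 32 where Krt18 overlaps, and the ductular genes from week 12 or 16 to week 32, and 1 Control library at week 48 lies among or above the LIDPAD libraries for most members.

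A few libraries stood apart from their group, and several results below rest on them. At week 48, Control library 3 was closer over all genes tested to the LIDPAD libraries (mean absolute log2 difference 0.379) than to the other Control libraries (0.536). It had the highest Prom1 (29.4 FPM) and Krt23 (7.49 FPM) of all 38 libraries, together with the highest H19 (934 FPM), Tff3 (91.4 FPM) and Krt20 (20.4 FPM). At week 4, Control library 2 carried more Krt8, Krt18, Krt23 and Prom1 than Control library 1 and both LIDPAD libraries. At week 32, LIDPAD libraries 1 and 3 were the top 2 of all 38 for Krt7, Krt19, Epcam, Sox9, Sox4 and Cd24a. Changes of the members that rest on these libraries are given with and without them. Counts and means for the other gene lists are given with all libraries only. The share of reads in mitochondrial ribosomal RNA also moved with diet at week 32, at 20.9 to 30.2% in LIDPAD livers, against 18.3 to 23.0% in Control livers, and at week 48 it was 23.8 to 26.3% in LIDPAD livers, against 23.0, 23.2 and 26.0% in Control libraries 1, 2 and 3. Its part in the results was not tested.

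Krt8 (chr15:101996698-102004482, minus strand) was the most abundant member together with Krt18. At week 1, Krt8 had 89.1 and 147 FPM in LIDPAD livers, against 62.6 and 69.1 FPM in Control livers. The libraries did not overlap, but the log2 change of 0.79 was not called (limma adjusted p = 0.139). At week 8, Krt8 reached 182 and 200 FPM in LIDPAD livers, against 95.3 and 91.2 FPM in Control livers, and the change of 1.03 ± 0.10 (SE) was called (limma adjusted p = 0.00532). At week 12 the values were 289 and 306 FPM in LIDPAD livers, against 132 and 91.5 FPM in Control livers, a change of 1.43 ± 0.16 (limma adjusted p = 0.000892). In both weeks every LIDPAD library lay above every Control library, but the week 8 call ended without LIDPAD library 1 (change 1.10) or 2 (0.96). At week 16, Krt8 reached its highest levels of the study, 465, 409 and 472 FPM in LIDPAD livers, against 181, 129 and 167 FPM in Control livers. The groups stood well apart, with means of 449 ± 34.3 FPM in LIDPAD and 159 ± 26.7 FPM in Control (SD, n = 3 each), and the log2 change was 1.51 ± 0.13 (limma adjusted p = 1.9e-05).

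At week 32, Krt8 had 250, 357, 271, 307 and 299 FPM in LIDPAD livers, against 93.5, 123, 80.4 and 248 FPM in Control livers. The groups touched without overlapping, since Control library 4 lay just under the lowest LIDPAD library, and the change was 1.26 ± 0.28 (limma adjusted p = 0.00699). Here LIDPAD libraries 1 and 3, the highest for the ductular genes, were the lowest of the 5 for Krt8. At week 48, Krt8 had 329, 228, 258 and 226 FPM in LIDPAD livers, against 96.4, 101 and 321 FPM in Control livers. Control library 3 lay inside the LIDPAD range, and the change of 0.81 was not called (limma adjusted p = 0.235). Without that library it was 1.38 ± 0.14 (limma adjusted p = 3.18e-05). At week 4 the 2 LIDPAD values, 130 and 137 FPM, lay between the 2 Control values, 95.7 and 239 FPM. The change there was -0.18 with all libraries and 0.47 without Control library 2, and without Control library 1 it was called lower, at -0.84 (limma adjusted p = 0.0185).

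Krt18 (chr15:102028180-102032027, plus strand), the partner of Krt8 in the hepatocyte filament, changed in the same weeks by less. At week 16 it had 297, 260 and 305 FPM in LIDPAD livers, against 158, 115 and 141 FPM in Control livers. The groups did not overlap and the log2 change was 1.06 ± 0.12 (limma adjusted p = 0.000118). The changes at weeks 8 and 12 were 0.58 ± 0.10 and 0.89 ± 0.15 (limma adjusted p = 0.0289 and 0.00505), with no overlap in either week, and the week 8 call ended without LIDPAD library 1 (0.66) or 2 (0.50). At week 32, Krt18 had 213, 229, 187, 192 and 204 FPM in LIDPAD livers, against 75.9, 136, 100 and 206 FPM in Control livers. Control library 4 lay within the LIDPAD range, and the change of 0.76 ± 0.24 (limma adjusted p = 0.0372) lost its call when LIDPAD libraries 1 and 3 were left out (0.78, adjusted p = 0.0893). It also ended when any library other than Control library 4 was left out by itself (0.53 to 0.81). At week 48 it had 198, 146, 160 and 147 FPM in LIDPAD livers, against 86.1, 107 and 232 FPM in Control livers, and the overlap left a change of 0.32 (limma adjusted p = 0.562), or 0.75 ± 0.13 without Control library 3 (limma adjusted p = 0.00121).

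The ratio of the 2 chains had a higher mean on LIDPAD in all 7 weeks. Krt8 FPM divided by Krt18 FPM averaged 1.32 in LIDPAD and 1.02 in Control at week 1, 1.44 and 1.06 at week 8, 1.5 and 1.03 at week 12, 1.56 and 1.15 at week 16, and 1.60 in LIDPAD and 1.15 in Control at week 48. At week 4 it was 1.38 in LIDPAD and 1.18 in Control, and at week 32 it was 1.45 in LIDPAD and 1.04 in Control. In 6 of the 7 weeks every LIDPAD library lay above every Control library. Week 32 was the exception, where LIDPAD ran from 1.17 to 1.60 and Control from 0.80 to 1.23. The ratio cancels the size factor of a library. It was picked out after the values were seen, so it is given with no test. Control library 3 of week 48, whose Krt8 lay inside the LIDPAD range, had a ratio of 1.38, under that week's LIDPAD range of 1.54 to 1.67. It was the highest ratio of any Control library, followed by Control library 2 of week 4 at 1.32. LIDPAD library 2 of week 4 also had 1.38.

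**Figure D2:**
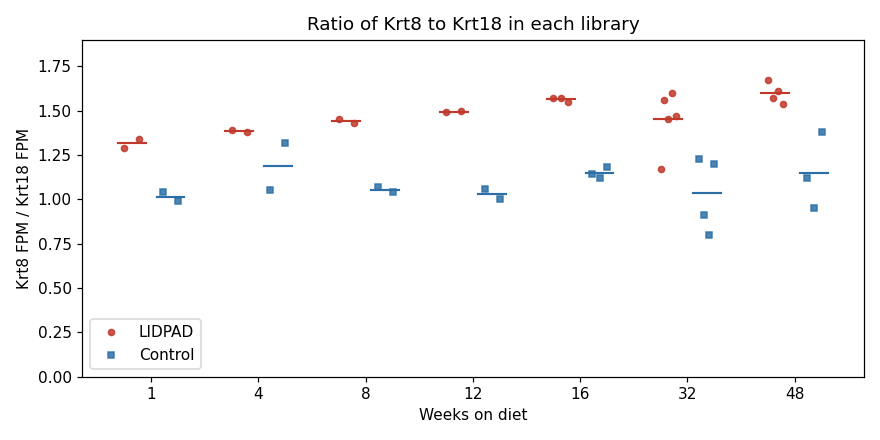
Ratio of Krt8 FPM to Krt18 FPM in every library against weeks on diet, LIDPAD (red circles) left of Control (blue squares), lines at the group means, axis from 0. LIDPAD means run from 1.32 to 1.60 and Control means from 1.02 to 1.18, and only at week 32 do libraries of the diets overlap.

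Reads of Krt8 are partly shared with a near-identical copy. Krt8-ps, a processed pseudogene of Krt8 on chromosome 7, carried 2.43 to 4.53% of the FPM of Krt8, so how reads were divided between the 2 is uncertain. Among 12330 genes tested in all 7 weeks, the genes whose 7 changes lay closest to those of Krt8 were Ctps, Serpina3g and Krt8-ps, at root mean square differences of 0.15, 0.16 and 0.16 on the log2 scale. For Krt18 they were Ywhah, Gm26809 and Pcolce, at 0.12, 0.12 and 0.16.

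Krt23 (chr11:99477974-99493137, minus strand), a type I keratin that is scarce in healthy liver, was the member with the earliest call. At week 1 it had 1.87 and 2.55 FPM in LIDPAD livers, against 0.272 and 0.227 FPM in Control livers. That is a ratio of the means of 8.85, with no overlap, and the log2 change was 1.84 ± 0.24 (limma adjusted p = 0.0148). The call ended without Control library 1 (1.89) or 2 (1.80). At week 8 it had 3.35 and 2.19 FPM in LIDPAD livers, against 0.165 and 0.422 FPM in Control livers (change 2.04 ± 0.27, limma adjusted p = 0.0127), and at week 12 2.46 and 2.19 FPM in LIDPAD livers, against 0.201 and 0.292 FPM in Control livers (change 1.92 ± 0.22, limma adjusted p = 0.000996). The week 8 call ended without LIDPAD library 1 (1.78) or 2 (2.30). On the log2(FPM + 0.5) scale the change was largest at week 16, where Krt23 had 6.33, 5.10 and 5.22 FPM in LIDPAD livers, against 0.698, 0.246 and 0.548 FPM in Control livers. The ratio of the means was 11.2 and the change 2.62 ± 0.22 (limma adjusted p = 1.9e-05). At week 32 the LIDPAD libraries had 2.75, 0.959, 5.61, 2.56 and 2.00 FPM, against 0.312, 0, 0.220 and 0.281 FPM in Control libraries, where 3 reads in the library at 0 would be 0.148 FPM. All LIDPAD libraries lay above all Control libraries. The ratio of the means was 13.7 and the change 2.09 ± 0.36 (limma adjusted p = 0.0019), or 1.69 ± 0.32 without LIDPAD libraries 1 and 3 (limma adjusted p = 0.00643).

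At 2 durations a single Control library set the Krt23 result. At week 4 Krt23 had 1.73 and 1.75 FPM in LIDPAD livers, against 0.108 and 4.43 FPM in Control livers. The change of 0.37 (limma adjusted p = 0.919) became 1.88 ± 0.32 without Control library 2 (limma adjusted p = 0.0444) and -1.14 ± 0.24 without Control library 1 (limma adjusted p = 0.0509). At week 48 Krt23 had 2.93, 3.48, 3.41 and 3.07 FPM in LIDPAD livers, against 0.249, 0.391 and 7.49 FPM in Control livers. The 4 LIDPAD libraries were close to each other, and the change was 1.09 (limma adjusted p = 0.397) with Control library 3 and 2.19 ± 0.18 (limma adjusted p = 9.59e-06) without it. The genes with the 7 changes most like those of Krt23 were Cntnap1, Cyp3a11 and Lgals1, at root mean square differences of 0.37, 0.41 and 0.43.

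**Figure D3:**
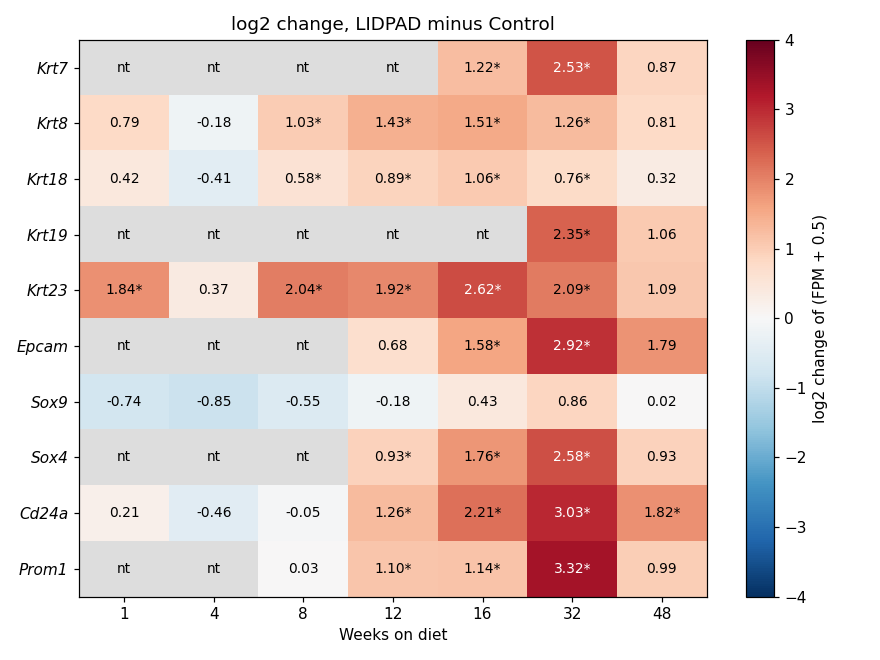
Log2 change of each member, LIDPAD minus Control, in every week, with negative changes in blue and positive ones in red, an asterisk where limma's adjusted p was under 0.05, and grey cells marked nt where the gene was too low to be tested. Krt8, Krt18 and Krt23 are called from week 8 to week 32, and the ductular genes have their largest changes at week 32.

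The keratins of bile ducts were low and were called later. Krt7 (chr15:101411043-101430313, plus strand) was under 1 FPM in every library up to week 12 and was not tested there. At week 16 it had 1.85, 1.07 and 1.26 FPM in LIDPAD livers, against 0.376, 0.290 and 0.240 FPM in Control livers (change 1.22 ± 0.25, limma adjusted p = 0.00393). At week 32 it had 8.51, 2.32, 8.90, 1.66 and 2.02 FPM in LIDPAD livers, against 0.106, 0.392, 0.193 and 0.246 FPM in Control livers. The means were 4.68 ± 3.68 FPM in LIDPAD (SD, n = 5) and 0.234 ± 0.120 FPM in Control (SD, n = 4), a ratio of 20.0, and the change was 2.53 ± 0.46 (limma adjusted p = 0.00241). LIDPAD libraries 1 and 3 exceeded the other 3, and without them the change was 1.77 ± 0.24 (limma adjusted p = 0.0016).

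Krt19 (chr11:100140810-100148665, minus strand), the type I partner of Krt7 in duct cells, showed the same pair of libraries. At week 32 it had 10.8, 0.722, 12.7, 1.04 and 2.2 FPM in LIDPAD livers, against 0.112, 0.210, 0.193 and 0.484 FPM in Control livers. The groups did not overlap, and the change was 2.35 ± 0.68 (limma adjusted p = 0.0245), or 1.22 ± 0.32 without LIDPAD libraries 1 and 3 (limma adjusted p = 0.0265). Leaving out Control library 1, 2 or 3 ended the call with changes of 2.26, 2.33 and 2.32. At week 16, where Krt19 was under the level needed for a test, it had 2.25, 0.970 and 1.75 FPM in LIDPAD livers, against 0.158, 0.849 and 0.494 FPM in Control livers, with no overlap. At week 48 the values were 1.38, 1.77, 2.02 and 1.75 FPM in LIDPAD livers, against 0.161, 0.513 and 1.29 FPM in Control livers, and the change of 1.06 was not called (limma adjusted p = 0.0767), but reached 1.44 ± 0.23 without Control library 3 (limma adjusted p = 0.000781). Krt7 at week 48 had 1.82, 1.52, 2.54 and 1.13 FPM in LIDPAD livers, against 0.239, 0.523 and 1.79 FPM in Control livers, and its change of 0.87 (limma adjusted p = 0.202) became 1.34 ± 0.27 without that library (limma adjusted p = 0.00297).

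Among the surface proteins of ductular cells, Cd24a had the most calls. Cd24a (chr10:43578284-43584265, plus strand) encodes a small glycosylated adhesion protein anchored to the membrane by lipid. It was not called through week 8. At week 12 it had 3.5 and 4.27 FPM in LIDPAD livers, against 1.54 and 1.12 FPM in Control livers (change 1.26 ± 0.21, limma adjusted p = 0.00514), and at week 16 9.35, 7.73 and 6.99 FPM in LIDPAD livers, against 1.58, 0.749 and 1.88 FPM in Control livers (change 2.21 ± 0.24, limma adjusted p = 7.93e-05). Neither week had overlapping libraries. At week 32 Cd24a had 24.5, 5.12, 37.1, 7.51 and 10.9 FPM in LIDPAD livers, against 0.685, 1.86, 0.867 and 1.59 FPM in Control livers. The lowest LIDPAD library was above the highest Control library, the ratio of the means was 13.6 and the change was 3.03 ± 0.50 (limma adjusted p = 0.00148), or 2.25 ± 0.32 without LIDPAD libraries 1 and 3 (limma adjusted p = 0.00202). At week 48 it was the 1 member called, with 9.56, 12.6, 12.8 and 12.2 FPM in LIDPAD livers, against 1.42, 2.00 and 8.19 FPM in Control livers. The change was 1.82 ± 0.46 (limma adjusted p = 0.0454) and lost its call when any library other than Control library 3 was left out (1.39 to 1.91), while it was 2.48 ± 0.16 without Control library 3 (limma adjusted p = 2.16e-06). The genes with the 7 changes most like those of Cd24a were Bicc1, Svep1 and Olfml3, at root mean square differences of 0.24, 0.31 and 0.32.

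Epcam (chr17:87635979-87651129, plus strand) encodes an epithelial adhesion protein that duct cells carry and mature hepatocytes lack. At week 12 it had 1.03 and 1.08 FPM in LIDPAD livers, against 0.430 and 0.510 FPM in Control livers, a change of 0.68 that was not called (limma adjusted p = 0.0824). At week 16 it had 3.30, 2.99 and 1.51 FPM in LIDPAD livers, against 0.534, 0.565 and 0.415 FPM in Control livers (change 1.58 ± 0.27, limma adjusted p = 0.00132). At week 32 it had 21.1, 2.68, 18.4, 3.87 and 5.41 FPM in LIDPAD livers, against 0.321, 0.287, 0.407 and 1.70 FPM in Control livers. All LIDPAD libraries lay above the Control libraries, with a ratio of the means of 15.2 and a change of 2.92 ± 0.58 (limma adjusted p = 0.00388), or 2.03 ± 0.39 without LIDPAD libraries 1 and 3 (limma adjusted p = 0.00703). At week 48 it had 3.15, 5.96, 4.18 and 4.91 FPM in LIDPAD livers, against 0.402, 0.175 and 4.29 FPM in Control livers. Control library 3 overlapped the LIDPAD libraries, and the change of 1.79 (limma adjusted p = 0.104) was 2.66 ± 0.24 without it (limma adjusted p = 1.66e-05).

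Prom1 (chr5:43993620-44102032, minus strand) encodes prominin-1, a pentaspan protein of membrane protrusions used to isolate progenitor cells. It was called higher at week 12, with 2.29 and 2.03 FPM in LIDPAD livers, against 0.682 and 0.802 FPM in Control livers (change 1.10 ± 0.21, limma adjusted p = 0.00993), a call that ended without LIDPAD library 1 (1.03). At week 16 it had 3.5, 2.62 and 2.18 FPM in LIDPAD livers, against 0.910, 1.08 and 0.895 FPM in Control livers (change 1.14 ± 0.22, limma adjusted p = 0.00246). At week 32 it had 28.9, 9.18, 23.7, 2.69 and 5.35 FPM in LIDPAD livers, against 0.755, 0.927, 0 and 0.864 FPM in Control livers, where 3 reads in the library at 0 would be 0.311 FPM. This was the largest change of any member in any week, 3.32 ± 0.61 (limma adjusted p = 0.00267), and 2.43 ± 0.46 without LIDPAD libraries 1 and 3 (limma adjusted p = 0.00666). At week 48 Prom1 had 5.19, 6.04, 6.23 and 4.81 FPM in LIDPAD livers, against 0.599, 0.350 and 29.4 FPM in Control livers. A single Control library was therefore both the highest of the study and far from the other 2, and the change was 0.99 ± 1.10 (limma adjusted p = 0.624) with it and 2.64 ± 0.18 (limma adjusted p = 2.84e-06) without it.

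Of the 2 SOX factors, Sox4 was called in the limma fits of 3 weeks and Sox9 in none of them. Sox4 (chr13:28948919-28953713, minus strand), a SoxC factor of progenitor cells, was called higher at week 12 with 1.35 and 1.30 FPM in LIDPAD livers, against 0.505 and 0.414 FPM in Control livers (change 0.93 ± 0.23, limma adjusted p = 0.0256). That call ended when LIDPAD library 1 or 2 or Control library 2 was left out. At week 16 Sox4 had 3.24, 3.02 and 2.41 FPM in LIDPAD livers, against 0.611, 0.192 and 0.795 FPM in Control livers (change 1.76 ± 0.26, limma adjusted p = 0.000621), and at week 32 6.05, 2.92, 9.20, 2.07 and 2.51 FPM in LIDPAD livers, against 0.370, 0.298, 0 and 0.350 FPM in Control livers. The groups stood apart in both weeks, and the week 32 change of 2.58 ± 0.39 (limma adjusted p = 0.00086) was 2.02 ± 0.27 without LIDPAD libraries 1 and 3 (limma adjusted p = 0.00157). At week 48 Sox4 had 2.42, 2.35, 3.13 and 2.37 FPM in LIDPAD livers, against 0.363, 0.507 and 4.22 FPM in Control livers, and the change of 0.93 (limma adjusted p = 0.316) became 1.71 ± 0.19 without Control library 3 (limma adjusted p = 7.12e-05).

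Sox9 (chr11:112782224-112787760, plus strand), a SoxE factor that specifies bile ducts and is also present in some periportal hepatocytes, lay below Control in the early weeks. At week 1 it had 1.36 and 2.66 FPM in LIDPAD livers, against 3.37 and 3.77 FPM in Control livers, and at week 4 1.47 and 3.31 FPM in LIDPAD livers, against 3.95 and 4.97 FPM in Control livers. At week 8 it had 2.41 and 3.17 FPM in LIDPAD livers, against 4.36 and 4.2 FPM in Control livers. At weeks 1, 4, 8 and 12 every LIDPAD library lay below every Control library, with changes of -0.74, -0.85, -0.55 and -0.18, none of them called (limma adjusted p = 0.229, 0.445, 0.124 and 0.573). At week 1 it was called lower without LIDPAD library 2 (-1.12, limma adjusted p = 0.0104). The order was the opposite at week 16, where Sox9 had 5.13, 3.93 and 3.34 FPM in LIDPAD livers, against 3.15, 2.48 and 3.12 FPM in Control livers (change 0.43, limma adjusted p = 0.122). At week 32 it had 13.3, 11.5, 16.5, 6.43 and 5.51 FPM in LIDPAD livers, against 3.90, 5.54, 8.40 and 3.94 FPM in Control livers. The groups overlapped, and the change of 0.86 ± 0.33 was not called (limma adjusted p = 0.0773). Without LIDPAD libraries 1 and 3 it was 0.48 ± 0.31 (limma adjusted p = 0.32), and it was called at 1.07, 1.00 and 1.05 without Control library 3, LIDPAD library 4 or LIDPAD library 5. With all libraries, Sox9 was called higher at week 32 in the joint fit (0.86, limma adjusted p = 0.0146), by DESeq2 (0.91, adjusted p = 0.0408) and with totals of 1000000 (1.15, limma adjusted p = 0.0201). Those totals also gave a call at week 16 (0.61, limma adjusted p = 0.0381). At week 48 Sox9 had 5.58, 6.33, 5.93 and 6.99 FPM in LIDPAD livers, against 4.36, 4.19 and 12.1 FPM in Control livers, and the change of 0.02 (limma adjusted p = 0.978) was 0.49 ± 0.13 without Control library 3 (limma adjusted p = 0.0162).

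Whether the effect of diet differed between weeks was tested in a joint limma fit of all 14 groups. The F test that the 7 changes were equal was called for Krt7, Epcam, Sox4 and Cd24a (limma adjusted p = 0.0152, 0.0202, 0.0215 and 0.0088), 4 of 10 members where 11.2% of 15867 genes were called. That test was not called for Krt8, Krt18, Krt23, Krt19, Prom1 and Sox9 (limma adjusted p = 0.286, 0.234, 0.521, 0.114, 0.116 and 0.0867). The mean change of weeks 32 and 48 minus that of weeks 1 and 4 was called higher for 7 of the 10, against 13.4% of all genes called higher and 19.6% called in either direction. It was 2.77 ± 0.61 for Epcam, 2.55 ± 0.53 for Cd24a, 2.49 ± 0.84 for Prom1, 1.82 ± 0.60 for Krt19, 1.76 ± 0.47 for Sox4, 1.5 ± 0.44 for Krt7 and 1.23 ± 0.37 for Sox9 (limma adjusted p from 0.00153 to 0.0361). For Krt8, Krt18 and Krt23 it was 0.73 ± 0.38, 0.54 ± 0.31 and 0.48 ± 0.64 and was not called (limma adjusted p = 0.174, 0.223 and 0.634). Leaving out a single library ended the call of late against early weeks for Prom1 and Krt19 in many cases (2.03 to 2.61 and 1.65 to 1.9), for Sox9 without LIDPAD library 1 of week 1, or Control library 2 or LIDPAD library 1 of week 4 (1.00 to 1.16), and for Krt7 without LIDPAD library 2 of week 4 (1.36). Without Control library 2 of week 4 and Control library 3 of week 48, late minus early was 3.13 for Epcam, 3.03 for Prom1, 2.72 for Cd24a and 2.04 for Sox4. It was 1.98 for Krt19, 1.72 for Krt7, 1.39 for Sox9, 0.68 for Krt8, 0.50 for Krt18 and 0.28 for Krt23. That leaves 1 Control library at week 4, so no test is given. In the joint fit of all libraries, with 1 spread shared over the weeks, no member was called at week 1, 8 or 12 (1, 2 and 4 members at an unadjusted p under 0.05). That fit called 10, 27 and 250 of 15867 genes in those weeks. In fits of the single weeks edgeR called 1, 3 and 6 members and DESeq2 called 2, 3 and 6. Of all genes tested, edgeR called 2.11%, 5.05% and 15.2% there and DESeq2 3.83%, 9.52% and 15%.

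The number of the 10 members, tested or not, with every LIDPAD library above every Control library was 4 at week 1, 1 at week 4, 3 at week 8, 9 at week 12, 10 at week 16, 8 at week 32 and 2 at week 48. Among the members tested it was 2 of 5, 0 of 5, 3 of 6, 7 of 8, 9 of 9, 8 of 10 and 2 of 10. Of all genes tested, the share with that pattern was 24.2%, 21.3%, 28.3%, 29.3%, 23.5%, 17% and 14.1%. The opposite pattern, every LIDPAD library below every Control library, was seen for 1, 5, 2, 1, 0, 0 and 0 members, against 24.4%, 20.9%, 27.1%, 28.2%, 19.7%, 8.8% and 10.7% of all genes tested. The 5 at week 4 were Krt19, Epcam, Sox9, Cd24a and Prom1, of which Krt19, Epcam and Prom1 were too low to be tested. So was Krt7, which with Sox9 made up the 2 at week 8. At week 48, all 10 members were called higher when Control library 3 was left out. Of all genes, 37.7% were called in either direction without that library and 9.87% with it.

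**Figure D4:**
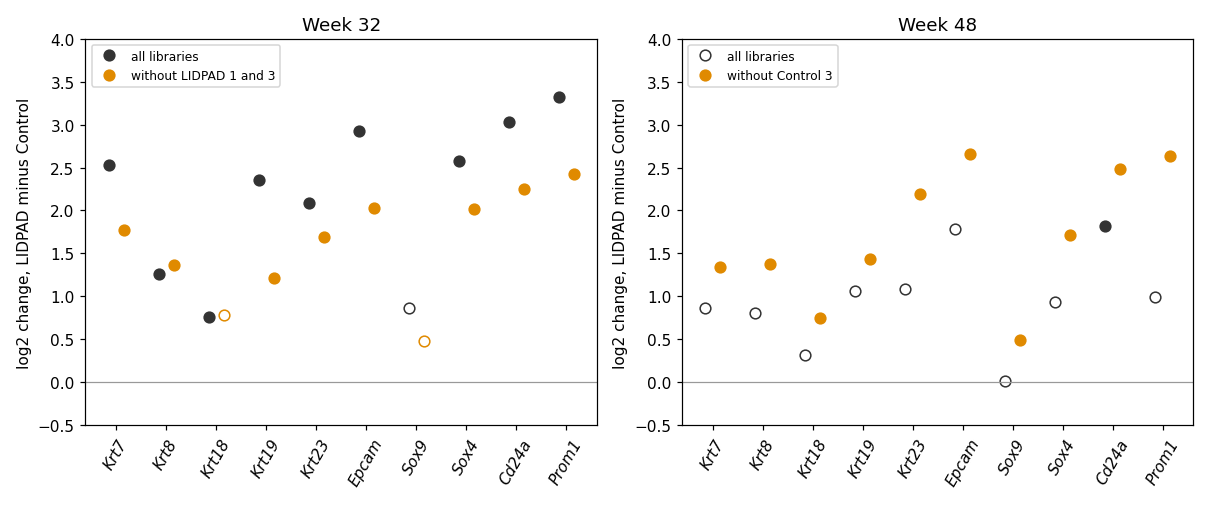
Log2 change of each member, LIDPAD minus Control, at week 32 (left) and week 48 (right), with all libraries (black) and without LIDPAD libraries 1 and 3 or without Control library 3 (orange), with filled points where limma's adjusted p was under 0.05. At week 32 Prom1 is 3.32 with all libraries and 2.43 without the 2, while Krt8 is 1.26 and 1.37, and at week 48 the points without Control library 3 are filled for all 10 members.

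Per length, the hepatocyte keratins stood far above the rest. Taking the mean of each group divided by the length of all annotated exons of the gene, Krt18 ran from 62.1 to 200 FPM per kb over the LIDPAD groups, against 45.3 to 98.5 FPM per kb over the Control groups. Krt8 ran from 60.3 to 229 FPM per kb over the LIDPAD groups, against 33.6 to 88.3 over the Control groups. All other members were under 10 FPM per kb. By highest group mean the next was Cd24a, at 0.49 to 6.6 FPM per kb over LIDPAD groups, against 0.452 to 1.5 over Control groups. Sox9 lay above Cd24a in the Control group of every week, and Krt23 did so in the LIDPAD groups of weeks 1, 4, 8 and 16. The lowest was Krt7, at 0.0261 to 0.664 over LIDPAD groups, against 0.0231 to 0.121 over Control groups. Krt23 and Krt19 reached 3.55 and 2.97 FPM per kb in their highest LIDPAD group. These levels set separately normalized tables side by side, and their order within a week is safer than between weeks. Overlapping neighbours on either strand, whose reads cannot be told apart because no strand setting is given, were low: Gm671 at Krt7 averaged 0.0637 FPM, Gm36026 at Krt8 0.145, Gm42716 and Gm16401 at Prom1 0.114 and 0.0146, and Gm26735 at Sox4 had no reads.

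Other bile duct and ductular reaction genes moved in the same weeks as the ductular members. Of 29 listed, limma called 6 higher and 2 lower of 17 tested at week 12, 8 higher and 1 lower of 17 at week 16, 12 higher and 1 lower of 22 at week 32, and 4 higher of 24 at week 48. Before week 12 limma called none higher. At an unadjusted limma p under 0.05, 0, 1 and 2 were higher and 4, 2 and 3 lower at weeks 1, 4 and 8. In those weeks 1 was called lower, Cdh1, the E-cadherin gene, at week 8. Among all genes tested, 8.99%, 16.3%, 18% and 6.54% were called higher at weeks 12, 16, 32 and 48. The shares called lower were 6.25%, 12%, 8.82% and 3.34%. Low genes could reach 1 FPM through their LIDPAD libraries, so these counts of tested genes describe and do not support. The median change of the list was -0.10 at week 12, 0.17 at week 16, 1.96 at week 32 and 0.52 at week 48, against 0.00, 0.00, 0.04 and 0.01 for all genes tested. Spp1, the osteopontin gene, averaged 117.6 FPM in LIDPAD livers, against 15.2 FPM in Control livers at week 16 (change 2.88 ± 0.14, limma adjusted p = 5.8e-07). Tspan8, a tetraspanin, averaged 14.9 FPM in LIDPAD livers, against 0.589 FPM in Control livers at week 32 (change 3.72 ± 0.40, limma adjusted p = 0.000152). Ehf, an epithelial ETS factor, averaged 13.5 FPM in LIDPAD livers, against 0.356 FPM in Control livers in the same week (change 3.78 ± 0.43, limma adjusted p = 0.000191).

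Genes around the keratin filament and its aggregates were called mostly from week 8, with 1, Hspb1, already at week 1. Of 12 genes of keratin inclusions and protein aggregates, all tested at week 16, 8 were called higher (median change 0.60), and at week 8 it was 5 of 11 (median 0.63). In both weeks none was lower, also at an unadjusted p under 0.05. At week 32, 3 were called higher and 1 lower. By comparison, 0.726%, 3.85%, 16.3% and 18% of all genes tested were called higher at weeks 1, 8, 16 and 32. The shares called lower were 1.27%, 1.75%, 12% and 8.82%. Hspb1, a small heat shock protein, averaged 45.1 FPM in LIDPAD livers, against 8.74 FPM in Control livers at week 16 (change 2.35 ± 0.23, limma adjusted p = 3.77e-05). Tgm2, the transglutaminase that crosslinks keratin 8, averaged 169 FPM in LIDPAD livers, against 68.6 FPM in Control livers (change 1.31 ± 0.13, limma adjusted p = 4.41e-05). Of 14 cytolinker, desmosome and other filament genes, 5 were called higher and 1 lower of 13 tested at week 16, the higher ones led by Vim (vimentin) and Lmna (lamin A/C), neither of them a keratin partner. Of the 23 other keratins listed, none reached the level needed for a test in any week.

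Lists of pathways that act on ductular cells gave mixed counts. Limma called 3.85%, 8.99%, 16.3%, 18% and 6.54% of all genes tested higher at weeks 8, 12, 16, 32 and 48. The shares called lower were 1.75%, 6.25%, 12%, 8.82% and 3.34%. Of 16 Notch genes, 2 were called higher and 1 lower of 13 tested at week 16, and 7 higher and 1 lower of 14 at week 32, where the median change was 0.51. The Notch counts at week 16 were near the shares of all genes. Hey1, a Notch target, averaged 2.40 FPM in LIDPAD livers, against 0.126 FPM in Control livers at week 32 (change 2.13 ± 0.33, limma adjusted p = 0.001), and Hes6 was lower, at 9.84 FPM in LIDPAD livers, against 25.6 FPM in Control livers (change -1.33 ± 0.18, limma adjusted p = 0.00043). Of 14 YAP pathway genes, 7 of 13 tested were called higher at week 12, 6 of 13 at week 16, 9 of 14 at week 32 and 6 of 14 at week 48. At weeks 16 and 32, 1 was called lower, and at week 32 that was Yap1 itself (change -0.52 ± 0.12, limma adjusted p = 0.00926). Axl, a receptor kinase, and Wwtr1, the TAZ coactivator, had the smallest p at week 32, with changes of 2.14 ± 0.26 and 0.92 ± 0.13 (limma adjusted p = 0.000284 and 0.000569). Of 14 fetal and oncofetal genes, 5 of 8 tested were called higher at week 32, led by Anxa2 (change 3.52 ± 0.16, limma adjusted p = 1.21e-06). At weeks 8, 12 and 16 it was 3 of 7, 4 of 8 and 5 of 8. Tff3 of this list was called lower at weeks 4, 8, 12 and 16, where at week 4 0.166% of all genes tested were lower. At week 48 none of 9 tested was called (2 higher and 2 lower at an unadjusted limma p under 0.05). Of 11 relatives of Sox4 and Sox9, none was called higher by limma in any week (at most 2 at an unadjusted p under 0.05, at week 32), and 2 were called lower at week 12 (Sox5 and Sox6) and 2 at week 16 (Sox6 and Sox12).

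Markers of other liver cells moved with these results, and their part in them was not tested. The 11 cholangiocyte markers other than the members summed to 84.3 to 375 FPM in LIDPAD livers, against 22.6 to 30.2 FPM in Control livers at week 32, and to 58.0 to 78.2 FPM in LIDPAD livers, against 26.7 to 37.3 FPM in Control livers at week 16. Limma called 6 of 7 tested higher at week 32 and 4 of 5 at week 16. All of these were already counted in the bile duct list, so they add no support, and low genes could pass the filter through LIDPAD libraries. Shares over all genes tested were 18% higher and 8.82% lower at week 32, and 16.3% and 12% at week 16. LIDPAD libraries 1 and 3 of week 32 had cholangiocyte sums of 375 and 326 FPM and the other 3 had 84.3 to 101 FPM. Control library 3 of week 48 had 181 FPM, above the LIDPAD range of 110 to 129 FPM. Hepatocyte markers, 10 genes, summed to 38862 to 47828 FPM in LIDPAD livers, against 76088 to 91046 FPM in Control livers at week 16, with 6 of 10 called lower. At week 32 they summed to 32474 to 110154 FPM in LIDPAD livers, against 85211 to 101001 FPM in Control livers, with 5 of 10 called lower. The highest LIDPAD value was that of library 1, and the other 4 ran from 32474 to 39716 FPM. That library also had the highest sum of 6 erythroid genes, 1660 FPM, against 258 to 303 FPM in the other LIDPAD libraries.

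Sums of non-epithelial markers at week 32 were 491 to 830 FPM in LIDPAD livers, against 277 to 329 FPM in Control livers for 8 stellate cell and fibroblast genes. For 8 macrophage genes they were 586 to 2435 FPM in LIDPAD livers, against 120 to 226 FPM in Control livers, and the highest was LIDPAD library 2, while the other 4 LIDPAD libraries had 586 to 681 FPM. The 6 B cell genes summed to 4.18 to 22.5 FPM in LIDPAD livers, against 1.05 to 3.69 FPM in Control livers, and 6 neutrophil genes to 8.35 to 35.0 FPM in LIDPAD livers, against 3.86 to 6.82 FPM in Control livers. Sums of 6 endothelial genes overlapped, at 158 to 217 FPM in LIDPAD livers, against 179 to 231 FPM in Control livers. The 8 mesothelial genes summed to 4.2 to 21.0 FPM in LIDPAD livers, against 2.24 to 5.73 FPM in Control livers. The 8 pancreatic acinar genes summed to at most 1.24 FPM in LIDPAD livers and 0.419 FPM in Control livers, with Prss2, Pnlip, Cel, Cela3b and Try5 at 0 in all libraries of that week. The 8 genes of intestinal or gallbladder epithelium summed to 3.90 to 53.3 FPM in LIDPAD livers, against 5.22 to 14.9 FPM in Control livers, with Agr2 at 0 throughout. Tff3 made up 48.8 FPM of the highest of these sums, that of LIDPAD library 1.

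At week 32 the libraries fell into 2 sets by how their reads divided over their 4 columns, and the labels do not say what those sets are. Within the set of LIDPAD libraries 1 to 3 and Control libraries 1 to 3, the changes were 4.30 for Prom1, 3.70 for Epcam, 3.48 for Cd24a, 3.11 for Krt7, 3.10 for Sox4, 3.08 for Krt19, 2.21 for Krt23, 1.57 for Krt8, 1.19 for Sox9 and 1.04 for Krt18. Within the other set, LIDPAD libraries 4 and 5 against Control library 4, they were 2.2 for Cd24a, 1.83 for Krt23, 1.71 for Sox4, 1.66 for Prom1, 1.64 for Krt7, 1.21 for Epcam, 1.05 for Krt19, 0.54 for Sox9, 0.29 for Krt8 and -0.06 for Krt18. The second set has 1 Control library, so its changes are given with no test. With the set as a term of the fit, all 10 members were called higher, Sox9 included (change 0.99 ± 0.23, limma adjusted p = 0.00867), where 30.7% of all genes were called.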

How the data were processed

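The authors' deposited signal values are FPM, read counts per gene divided by a size factor and scaled to 1000000, in tables of their own for each feeding duration. HISAT2, featureCounts, DESeq2 and GRCm38 are named, without versions or roles, per the submitters' processing notes; strand setting and annotation are not given in the sources used here. Liver RNA was extracted with TRIzol and a column and prepared as Illumina libraries by a company, per the labels' protocols. No deposited column of sample values was left unused (0).

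Whole reads were recovered from the steps of the values (100% within 0.02 reads). A value of 2 reads was seen 5.35 times as often as a value of 1, so reads came largely in pairs. Columns were averaged to 1 library where their chi-square, taken over genes of 200 to 2000 reads in the pool and divided by the number of genes, was under 2.5. It was 1.98 to 2.27 within blocks and at least 2.65 between them. Mitochondrial ribosomal RNA took 18.3 to 30.2% of reads. The limit of a count of 0 was set at 3 reads. Since reads came largely in pairs, counting error alone allows more than that.

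Each week was fitted with limma 3.58.1 (R 4.3.3) on log2(FPM + 0.5) with a mean-variance trend, and differences between weeks in a joint fit of 14 group means. The pseudocount shrinks changes of low genes. Alternatives were pseudocounts of 0.1 and 1, no filter or one of 5 FPM, totals of 1000000, the joint fit by week, a replicate block, edgeR 4.0.16 (quasi-likelihood) and DESeq2 1.42.0 on recovered reads, and leaving out each library. Leaving out LIDPAD libraries 1 and 3 and splitting week 32 by set of libraries were added after the values were seen. The scripts were tested on simulated data. The members, lists and tests were chosen with earlier results of these data known. From each list, at most the 2 called genes with the smallest p in a week were named, and for a member called in 3 or more weeks the 3 genes with the closest changes. Tff3, H19 and Krt20 were named after their values were seen, and so were Agr2, Yap1 and the pancreatic genes at 0. Gene positions are GRCm38 with GENCODE vM21; symbols were matched for 54409 IDs. Figures were drawn with matplotlib 3.10.9.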

Additional observations from a re-analysis of the deposited data

Results flagged for a closer look

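Of 33 sets of 4 or 5 libraries (each of the 10 members, and the ratio of Krt8 to Krt18, in 3 groups), 2 held a library far from the others, where chance gives about 1 in 20. Epcam was highest in Control library 4 of week 32, at 1.70 FPM, while the other 3 Control libraries had 0.321, 0.287 and 0.407 FPM. Sox4 was highest in LIDPAD library 3 of week 48, at 3.13 FPM, while the other 3 LIDPAD libraries had 2.42, 2.35 and 2.37 FPM. Groups of 2 or 3 libraries were not looked at in this way, so Control library 3 of week 48 is not among them.

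The diet effect differed between durations for several members. In the joint limma fit the F test over the 7 weeks had an adjusted p of 0.0152 for Krt7, 0.0202 for Epcam, 0.0215 for Sox4 and 0.0088 for Cd24a. The change of weeks 32 and 48 exceeded that of weeks 1 and 4, on the log2 scale, by 1.5 for Krt7, 1.82 for Krt19, 2.77 for Epcam, 1.23 for Sox9, 1.76 for Sox4, 2.55 for Cd24a and 2.49 for Prom1. Weeks also differ in number of libraries and in depth, and their part was not tested.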

How the results depend on the processing

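The number of members called was 1, 0, 3, 6, 8, 9 and 1 at weeks 1, 4, 8, 12, 16, 32 and 48. Of all genes tested, limma called 1.99%, 0.287%, 5.6%, 15.2%, 28.2%, 26.9% and 9.87% in either direction. A filter of 5 FPM gave 0 of 2 members tested at week 1, 2 of 2 at week 12, 4 of 4 at week 16 and 4 of 5 at week 32. Of all genes it called 245 of 8179, 1512 of 9163, 2927 of 9758 and 2559 of 9733 in those weeks. The joint fit by week gave 0 at weeks 1, 8 and 12 and 2 at week 48. Of all 15867 genes it called 10, 27, 250 and 2266 in those weeks. DESeq2 gave 2 at week 1, where it called 480 of 12538 genes. At week 48 a pseudocount of 0.1, no filter and edgeR each gave 0, and totals of 1000000 gave 2. All genes called there numbered 1377 of 14807, 1045 of 32204, 1181 of 14807 and 3048 of 14807 in that order. The F test over weeks, called for 4 members and 1775 of 15867 genes, gave 2 members and 1057 of 36254 genes with no filter.

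Leaving out each library in turn gave 0 to 3 members at week 1, 0 to 2 at week 4, 0 to 3 at week 8, 4 to 6 at week 12, 8 at week 16, 7 to 9 at week 32 and 0 to 10 at week 48, where 10 is the count without Control library 3. It gave 2 to 7 for the F test (2 without Control library 2 or LIDPAD library 2 of week 4, 7 without LIDPAD library 4 of week 32) and 4 to 9 for late against early weeks (4 without LIDPAD library 1 of week 1 or any of Control library 2, LIDPAD library 1 and LIDPAD library 2 of week 4). At week 1, 0 is the count without either Control library and 3 that without either LIDPAD library, and at week 8, 0 is that without either LIDPAD library. A lone library is assumed to vary like the other group. Leaving out a library leaves 1 in its group at weeks 1, 4, 8 and 12, so the counts there only describe. At week 16, 2776 to 3938 of all 13914 genes tested were called over the libraries left out. At week 32 it was 2964 to 3738 of 14187, and at week 48 136 to 5575 of 14807.

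These changes turned sign, with no call on the new side. At week 4, leaving out a library gave -0.84 to 0.47 for Krt8, -0.90 to 0.08 for Krt18 (both positive without Control library 2) and -1.14 to 1.88 for Krt23 (negative without Control library 1), and Krt23 was -0.35 under edgeR and -0.38 under DESeq2. At week 8, Cd24a with totals of 1000000 (0.04), and from -0.54 to 0.44 over libraries left out (0.44 without Control library 2, 0.38 without LIDPAD library 1), and Prom1 from -0.24 without LIDPAD library 2 to 0.30. Sox9 was 0.00 at week 12 with totals of 1000000, and Krt18 was -0.06 at week 32 in the set with 1 Control library. At week 48 Sox9 was -0.04 with the replicate block, -0.19 under edgeR, -0.17 under DESeq2, and -0.23 to 0.49 over libraries left out (negative without Control library 1 or 2 or LIDPAD library 4), and Prom1 was -0.90 under edgeR. Krt23 late minus early ran from -0.27 without Control library 2 of week 4 to 1.24 without Control library 1. The cause of these turns was not tested. Of the other values for single members, 1101 kept direction and call, 34 gained a call and 79 lost one.

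Library numbers did not pair the diets: correlations of deviations of same-numbered libraries ran from -0.116 to 0.123. A replicate block gave 2 members at week 1, 0 at week 4, 2 at week 8, 6 at week 12, 8 at week 16, 9 at week 32 and 0 at week 48. Of all genes it called 383 of 12538 at week 1 and 16 of 14807 at week 48. The filter of 1 FPM, and not depth, left Krt7, Krt19, Epcam, Sox4 and Prom1 mostly untested before week 12, where libraries held 24.8 to 53.8 M reads. With no filter all 10 members were tested there, and 1, 0 and 3 were called at weeks 1, 4 and 8. Depth limits the lowest values at week 32, where Krt23, Prom1 and Sox4 each had 0 reads in 1 Control library, of 12.4 or 19.8 M reads.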

Other observations

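Among the keratins that were not members, Krt20, a keratin of gut epithelium, was chosen for mention after its values were seen. It had 20.4 FPM in Control library 3 of week 48, 7.37 and 1.71 FPM in LIDPAD libraries 3 and 2 of week 32, and at most 0.422 FPM in each of the other libraries. H19, an imprinted fetal RNA, had 934 FPM in that Control library, 194 and 79.6 FPM in LIDPAD libraries 3 and 1 of week 32, and at most 8.79 FPM in each of the others. These 3 libraries, highest for H19, also had the 3 highest levels of Prom1 and of Sox4 in the study. Krt80 was highest in LIDPAD library 1 of week 32, at 1.79 FPM, with a median of 0.206 FPM over all 38 libraries, and Krt10 was highest in LIDPAD library 1 of week 16, at 1.42 FPM, with a median of 0.755 FPM.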
